A study of Canis lupus familiaris with 5 samples.

Results

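17-71 is a canine lymphoid cell line labelled as a B-lymphoid malignancy and as B-cell, and it is 1 of the 5 lines measured here. It was taken as a whole, by its sample label and not by any measured value, and set against the other 4 lines. These were CL-1, labelled as a leukemia of primitive a/b T cells, GL-1, a B-cell leukemia, CLGL-90, a T-cell LGL leukemia, and CLL-1390, a leukemia of primitive T cells. All 5 were grown untreated in RPMI with 10% FBS, and total RNA was hybridised to Affymetrix canine arrays, 1 array per line. No line had a replicate array, so neither an SD nor a p-value is given, and each array reads RNA pooled from a whole culture, in which the share of cells carrying a transcript and its level per cell cannot be told apart.

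B cells develop under transcription factors such as PAX5 and EBF1, carry the antigen receptor with its CD79 signalling chains, and present antigen on MHC class II. Activated B cells receive signals through CD40, Toll-like receptors and the NF-kB transcription factors, which switch on survival genes such as BIRC3. Canine B-cell malignancies are usually recognised by CD79A, MS4A1 (CD20) and PAX5, and lose or gain markers of other blood lineages in some cases.

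The values are the authors' log2 signals, so a difference of 2 is 4-fold. A gene was read by its probe set of highest mean, and 14387 genes with at least log2 5 in 1 or more lines were kept. The gap of a gene is its value in 17-71 minus the highest value among the other 4 lines, or, for genes lower in 17-71, the lowest of the other lines minus 17-71. The arrays were alike as a whole, with medians of 6.96 in 17-71 and 6.87 to 6.99 in the other lines. Control probe sets for sequences foreign to the dog (59 of them, called foreign controls here) reached 6.60 in 17-71 and 6.39 to 6.76 in the others. A value under that level cannot be told from background, so a second gap was taken with each array's highest foreign control as a floor. Pearson's r with 17-71, across 37793 probe sets, was 0.878 for CL-1, 0.913 for GL-1, 0.895 for CLGL-90 and 0.887 for CLL-1390, and probe sets are not independent replicates.

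In 17-71, 114 genes (0.792%) lay at least log2 2 above every other line and 35 (0.243%) lay as far below. These shares are the background for each count of list members past log2 2 given below. Among the other lines CL-1 had more genes on both sides (145 above, 1.01%, and 56 below, 0.389%), and CLL-1390 had 61 above (0.424%) and 36 below (0.250%). GL-1 had 51 above (0.354%) and 21 below (0.146%), and CLGL-90 had 101 above (0.702%) and 24 below (0.167%). The median gap of the 114 genes was 2.79 and that of the 35 genes 2.96. At log2 4 or more stood 24 genes above and 6 below, and at log2 1 or more 299 above (2.08%) and 137 below (0.952%). In 49 of the 114 genes all 4 other lines were at or under their highest foreign control, and with the floor 87 still had a gap of log2 2. For the 35 genes, 17-71 itself was at or under its control in 12, and 33 kept that gap with the floor. The line nearest to 17-71 among the 114 genes was CLGL-90 in 52, GL-1 in 24, CLL-1390 in 21 and CL-1 in 17. In 49 of the 114 that nearest line was itself at or under its highest foreign control, where values have no order. The tally is thus no measure of likeness between lines. Just inside the limit lay ITGA9 and FDXR, at no more than 2.01 above, and MPDU1 at 2.08 and RASGRP2 at 2.09 below. Just outside it lay BCL6 and CYLD at 1.99 or more above, and PNMA1 at 1.99 and SBK1 at 1.95 below. These 8 genes are named for their place at the limit, after their values were seen.

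**Figure D1:**
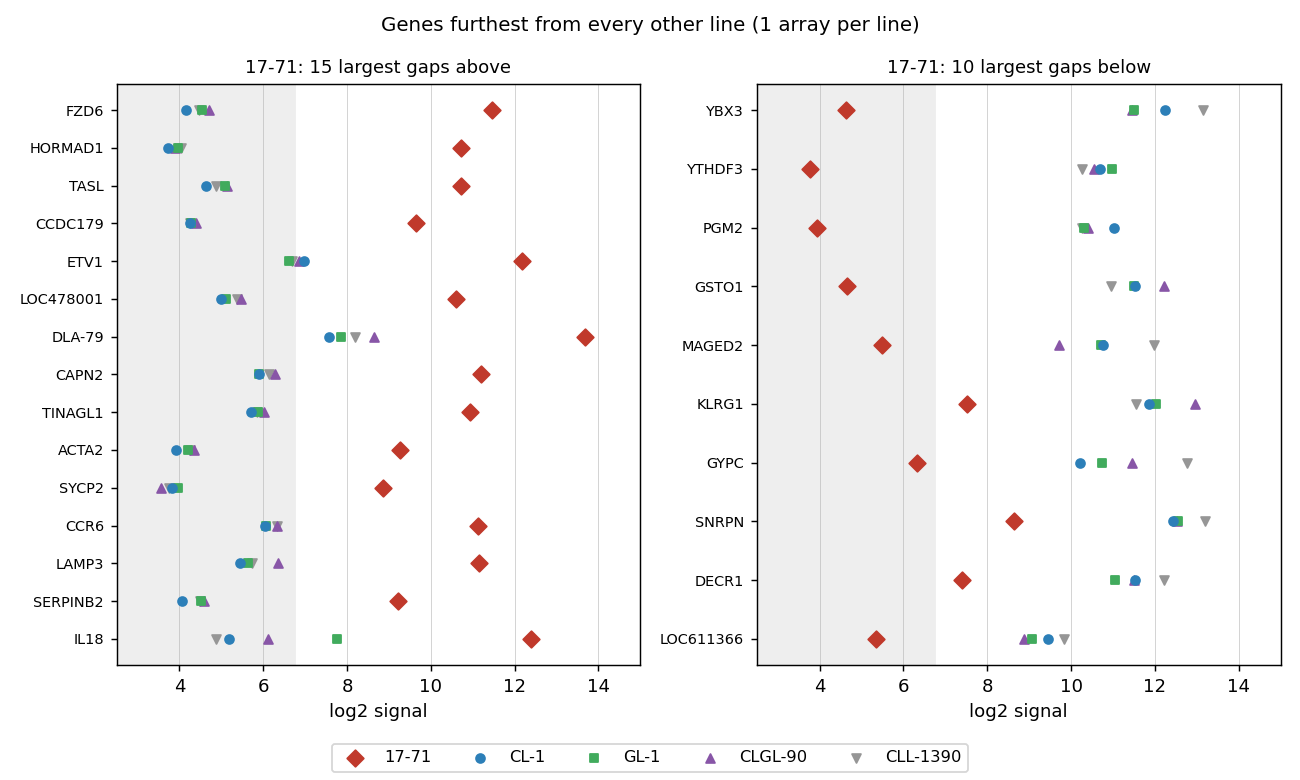
Log2 signal (horizontal axis) of the 15 genes furthest above and the 10 furthest below every other line in 17-71, with 1 point per line. The grey band ends at 6.76, the highest foreign control over the 5 arrays. FZD6 stands at 11.45 in 17-71 with the other 4 lines inside the band, and YBX3 stands inside the band in 17-71 with the others at 11.44 to 13.14.

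The 6 genes given as markers of 17-71 were all highest in this line. They are BIRC3, an inhibitor of apoptosis and NF-kB target, CCR6, a chemokine receptor of B cells and some T cells, KIT, the stem cell factor receptor, FZD6, a Wnt receptor, ETV1, an ETS transcription factor, and CD68, a lysosomal protein abundant in macrophages. Since they were chosen with results of these arrays known, their order is a description. FZD6 stood at 11.45 in 17-71, against 4.17 in CL-1, 4.55 in GL-1, 4.70 in CLGL-90 and 4.47 in CLL-1390. All 4 other values lay under the foreign controls, and the gap of 6.75 became 4.69 with the floor. The other probe set of FZD6 had a gap of 3.34. BIRC3 stood at 13.25 in 17-71, against 4.35 in CL-1, 6.95 in GL-1, 4.42 in CLGL-90 and 8.68 in CLL-1390. The other lines thus spread over more than 4 log2 units, and CLL-1390 was nearest. Of the other probe sets of BIRC3, 1 had a gap of 4.79, 1 of 4.18 and 1 of 0.70. CD68 stood at 11.76 in 17-71, against 6.91 in CL-1, 7.22 in GL-1, 7.73 in CLGL-90 and 7.13 in CLL-1390, and its 2 probe sets had gaps of 4.02 and 2.39. KIT stood at 10.46 in 17-71, against 7.07 in CL-1, 7.76 in GL-1, 8.51 in CLGL-90 and 7.99 in CLL-1390. Its gaps of 1.94 and 1.86 by 2 probe sets fell short of log2 2, so KIT is not among the 114 genes. CCR6 stood at 11.13 in 17-71, against 6.04 in CL-1, 6.07 in GL-1 and 6.32 in both CLGL-90 and CLL-1390. It has 1 probe set, and its gap was 4.81, or 4.37 with the floor.

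The PEA3 group of ETS factors, ETV1, ETV4 and ETV5, stood apart together in 17-71. In other cell types these factors are known as transcriptional outputs of the RAS-ERK pathway. ETV1 stood at 12.17 in 17-71, against 6.98 in CL-1, 6.61 in GL-1, 6.85 in CLGL-90 and 6.70 in CLL-1390. Its other probe set put it at 12.10 in 17-71 and at 4.25 to 5.63 in the others, a gap of 6.47. ETV5 stood at 11.35 in 17-71, against 7.26 in CL-1, 6.63 in GL-1, 6.87 in CLGL-90 and 6.29 in CLL-1390, with gaps of 4.09 and 4.24 by 2 probe sets. ETV4, by its 1 probe set, stood at 11.94 in 17-71, against 8.70 in CL-1, 8.76 in GL-1, 8.19 in CLGL-90 and 7.64 in CLL-1390. Of 21 ETS genes kept, these 3 had a gap of log2 2 above (0.792% of all genes had) and 0 below (0.243% had). At least log2 1 above the median of the other lines lay 6 of 21, as did 5.29% of all genes. The median difference of the list was 0.13, beside -0.01 over all genes, so most ETS genes lay near the other lines.

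CCND1, the cyclin D1 gene, stood at 12.34 in 17-71, against 9.04 in CL-1, 7.67 in GL-1, 7.88 in CLGL-90 and 6.85 in CLL-1390. Both of its probe sets had a gap of 3.30, with CL-1 nearest. Receptor tyrosine kinases and the feedback genes of RAS-ERK signalling lay near the other lines by their median. Of the 30 members, 12 were highest in 17-71 (15.7% of all genes were) and 6 lowest (17.5% were). At least log2 1 above the median of the other lines lay 5, and 0 lay as far below (5.29% and 4.32% of all genes did). CCND1 was the 1 member of 30 past log2 2 (0.792% of all genes lay as far above), and the median difference was 0.08. DUSP6, a phosphatase that acts on ERK, stood at 12.62 in 17-71, against 4.33 in CL-1, 12.53 in GL-1, 13.01 in CLGL-90 and 7.81 in CLL-1390. Activity of the RAS-ERK pathway was not tested. The feedback genes SPRY4 and SPRED2 read 6.43 in 17-71 and under 6.40 in the other lines, at or under the foreign controls, and were chosen after their values were seen.

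Of the Wnt receptors and signalling genes, FZD6 and WLS stood apart, 2 of 32 members (0.792% of all genes did), and the median difference was -0.02. WLS, the carrier that brings Wnt proteins to the cell surface for release, stood at 9.95 in 17-71, against 7.33 in CL-1, 7.49 in GL-1, 7.61 in CLGL-90 and 7.50 in CLL-1390. All 4 of its probe sets had a gap over log2 1, of 1.81, 2.35, 3.08 and 4.63. LEF1, a nuclear factor of the pathway and of early T cells, stood at 4.94 in 17-71, against 4.45 in CL-1, 9.00 in GL-1, 4.95 in CLGL-90 and 10.83 in CLL-1390. FZD6 and WLS were highest in 17-71, while LEF1 lay at background there as in CL-1 and CLGL-90. Wnt signalling was not tested.

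NF-kB subunits and target genes were on balance higher in 17-71. Of 36 members, 14 were highest in 17-71 (15.7% of all genes were), 13 lay at least log2 1 above the median of the other lines (5.29% of all genes did) and 0 lay as far below (4.32% did). The median difference was 0.59, against -0.01 over all genes, and it ran from 0.45 to 0.70 over the settings tried. BIRC3, ICAM1 and CXCL10 had a gap of log2 2, 3 of 36 (0.792% of all genes had). ICAM1, an adhesion molecule induced by NF-kB, stood at 10.28 in 17-71, against 6.09 in CL-1, 7.54 in GL-1, 6.70 in CLGL-90 and 6.77 in CLL-1390. CXCL10, a chemokine, stood at 7.49 in 17-71, against 5.06 in CL-1, 5.26 in GL-1, 5.18 in CLGL-90 and 5.10 in CLL-1390. That lies little above background, and with the floor the gap of CXCL10 was 0.73. Among the subunits, chosen after their values were seen, REL stood at 8.55 in 17-71 and 4.72 to 7.09 in the other lines, and RELB at 8.77 in 17-71 and 6.09 to 7.17 in the others. NFKB2 at 9.10 in 17-71 was below CL-1 (9.81) and above the other 3 lines (7.09 to 7.57). NFKB1 varied little, at 9.62 in 17-71 and 9.39 to 9.64 in the other lines. The inhibitor NFKBIA at 12.02 in 17-71 was below CL-1 (12.52), and the inhibitor TNFAIP3 read 7.06 in 17-71 and 5.97 to 6.42 in the others. The cytokines IL6 and IL1B read 4.82 and 4.37 in 17-71, under the foreign controls, as in every other line.

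Survival genes were measured in 2 lists. Among inhibitors of apoptosis and caspases, BIRC3 and CAPN2 had a gap of log2 2, 2 of 21 members (0.792% of all genes had), and the median difference was 0.21. CAPN2, the large subunit of a calcium-dependent protease, stood at 11.21 in 17-71, against 5.89 in CL-1, 5.90 in GL-1, 6.27 in CLGL-90 and 6.13 in CLL-1390. Of its other probe sets, 1 had a gap of 3.26 and 1 of 0.91. CAPN1, the partner isoform, ran the other way from 3 lines, at 7.52 in 17-71 and 7.63 in CL-1, against 10.30 in GL-1, 10.29 in CLGL-90 and 10.16 in CLL-1390. Of the BCL2 family, 0 of 14 members had a gap of log2 2 in either direction. BCL2A1, an NF-kB target that blocks apoptosis, stood at 13.85 in 17-71 and 13.36 in CLGL-90, with 11.34 in GL-1, 5.92 in CL-1 and 6.28 in CLL-1390. MCL1, another blocker, stood at 13.24 in 17-71, against 10.84 in CL-1, 11.03 in GL-1, 12.21 in CLGL-90 and 11.21 in CLL-1390. BAD, which opposes the blockers, was lowest in 17-71 at 7.20, against 7.85 to 9.42 in the other lines.

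**Figure D2:**
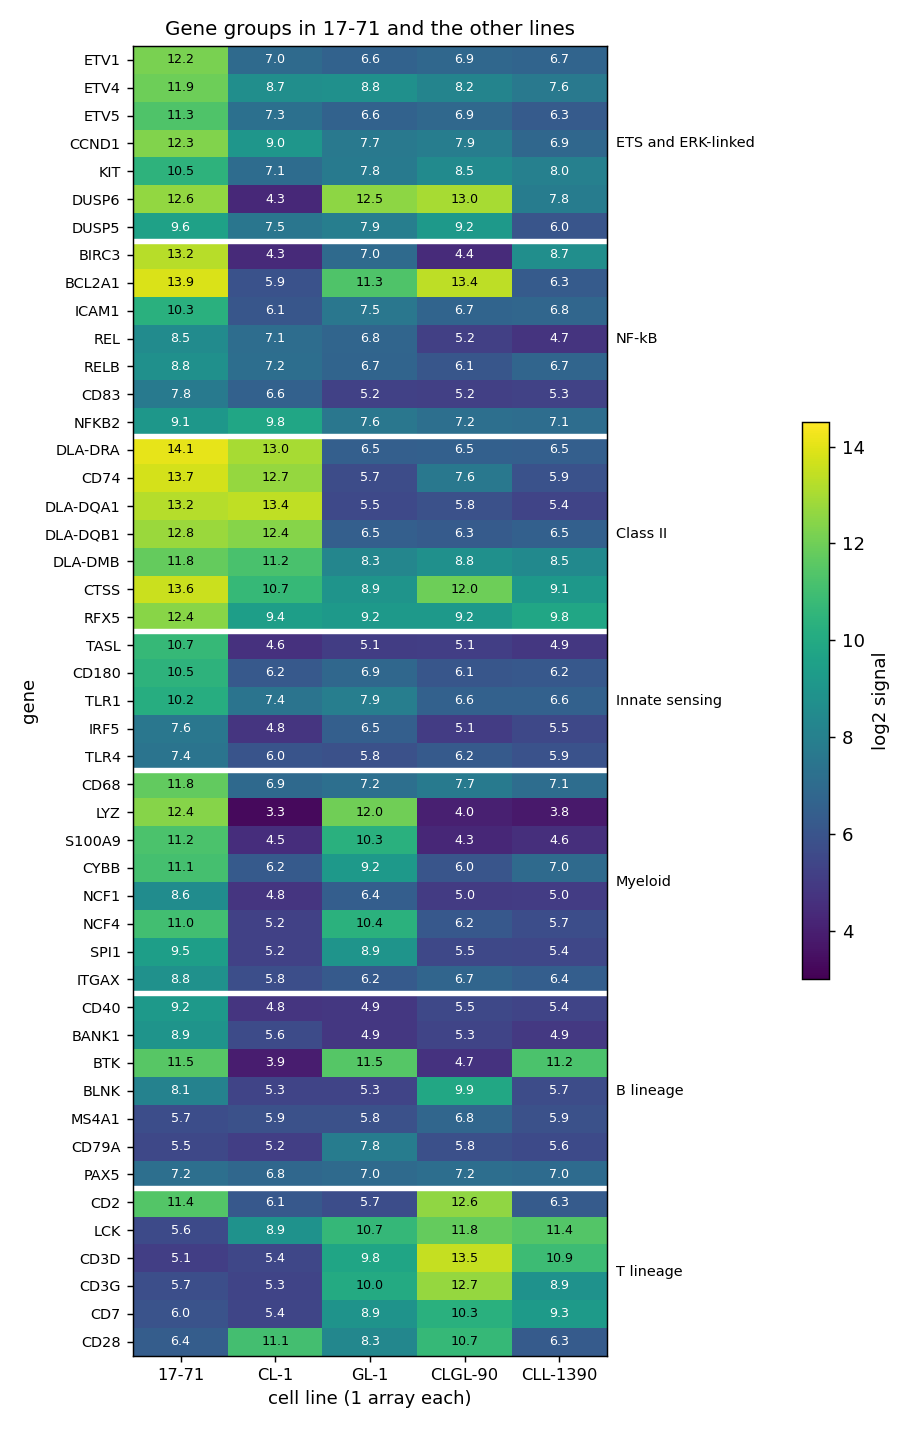
Log2 signal (colour and printed value) of genes of 7 groups, with 17-71 in the left column and the other 4 lines to its right, 1 array each. Colours compare lines within a row, since probe sets differ in how they respond. ETV1, BIRC3, RFX5, TASL, CD68 and CD40 are highest in 17-71, and LCK is lowest there.

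Of the innate sensing genes, TASL had 1 of the 15 widest gaps, and CD180 and TLR1 had narrower ones. TASL, which in human cells links the endosomal transporter SLC15A4 to the factor IRF5, stood at 10.72 in 17-71, against 4.65 in CL-1, 5.09 in GL-1, 5.13 in CLGL-90 and 4.87 in CLL-1390. CD180, a Toll-like receptor relative of B cells, stood at 10.45 in 17-71, against 6.21 in CL-1, 6.85 in GL-1, 6.08 in CLGL-90 and 6.19 in CLL-1390. TLR1, a receptor for bacterial lipopeptides, stood at 10.18 in 17-71, against 7.43 in CL-1, 7.92 in GL-1, 6.56 in CLGL-90 and 6.59 in CLL-1390. These 3 of 20 members of the Toll-like receptor and endosomal sensing list had a gap of log2 2 (0.792% of all genes had), each by 1 probe set, and the list's median difference was 0.18. IRF5, chosen after its values were seen, stood at 7.55 in 17-71 and 4.77 to 6.48 in the others, and SLC15A4 at 11.80 in 17-71 and 10.20 to 11.43 in the others. MYD88, the adaptor shared by most of these receptors, was lowest in 17-71 at 9.65, against 9.91 to 10.92. STING1, the sensor of cyclic dinucleotides, also chosen after its values were seen, stood at 11.69 in 17-71, against 6.58 in CL-1, 8.24 in GL-1, 6.94 in CLGL-90 and 6.61 in CLL-1390. The interferon response list had a median difference of -0.07 and 0 of 18 members past log2 2. In it OAS2, an antiviral enzyme, stood at 9.96 in 17-71, against 5.62 in CL-1, 8.71 in GL-1 and 6.20 in both CLGL-90 and CLL-1390.

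MHC class II and the genes that load it were high in 17-71, as several of them were in CL-1. Of 15 genes, 9 lay at least log2 1 above the median of the other lines and 1 below (background 5.29% and 4.32%), and the median difference was 2.32. Each taken against its own other 4 lines, it was 1.52 in CL-1, -1.54 in GL-1, -0.45 in CLGL-90 and -0.78 in CLL-1390. RFX5, a DNA-binding subunit of the complex on class II promoters, was the 1 member past log2 2 from every line. It stood at 12.45 in 17-71, against 9.44 in CL-1, 9.24 in GL-1, 9.19 in CLGL-90 and 9.83 in CLL-1390, and both of its probe sets passed. Its partner RFXAP lay below all the others, at 8.36 in 17-71 and 8.87 to 10.22 in the other lines, and RFXANK read 9.94 in 17-71 and 9.39 to 10.36 in the others. CTSS, the protease that trims the invariant chain, stood at 13.56 in 17-71, against 10.68 in CL-1, 8.94 in GL-1, 11.97 in CLGL-90 and 9.13 in CLL-1390, with a gap over log2 1 in both of its probe sets. DLA-DMB, a peptide exchange factor, stood at 11.76 in 17-71, against 11.18 in CL-1, 8.27 in GL-1, 8.76 in CLGL-90 and 8.47 in CLL-1390. Its partner DLA-DMA was lower in 17-71 (10.66) than in CL-1 (12.24) and higher than in the other 3 lines (7.61 to 8.59). Members other than RFX5, DLA-DRA and DLA-DQA1 were chosen after their values were seen.

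DLA-79, a nonclassical MHC class I gene, was the 1 member of 15 class I and peptide loading genes past log2 2. It stood at 13.68 in 17-71, against 7.58 in CL-1, 7.85 in GL-1, 8.64 in CLGL-90 and 8.20 in CLL-1390, and its 3 probe sets had gaps of 5.03, 4.75 and 2.64. Class I genes share long stretches of sequence, and whether a probe set reads 1 of them alone was not tested. DLA-64, another nonclassical gene, lay lower in 17-71 (10.08) than in GL-1 (11.03), CLGL-90 (10.74) and CLL-1390 (12.08) and higher than in CL-1 (8.70). The list's median difference was 0.07.

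The B-cell label was set against markers of the B lineage. Several defining ones lay at background, while most of the list did not. Of 28 genes listed, 23 had a probe set of their own and 22 were kept, with a median difference of 0.09. In 17-71, 15 of the 22 lay over the foreign control, and 7 were highest (15.7% of all genes were). At least log2 1 above the median of the other lines lay 6, and 0 lay as far below (5.29% and 4.32% of all genes did). The defining genes MS4A1 (5.71), CD79A (5.50), CD22 (6.03) and EBF1 (6.23) lay under the foreign control of 6.60 in 17-71. In the other lines MS4A1 read 5.83 to 6.79, CD79A 5.15 to 7.83, CD22 5.74 to 6.28 and EBF1 6.25 to 7.71. PAX5 lay a little over the control, at 7.18 in 17-71 and 6.83 to 7.15 in the others. CD79A and EBF1 were highest in GL-1, so their probe sets gave more signal there than in 17-71. CD40, the receptor for T-cell help, and BANK1, a scaffold of B-cell receptor signalling, were past log2 2, by 1 probe set each. CD40 stood at 9.17 in 17-71, against 4.78 in CL-1, 4.87 in GL-1, 5.49 in CLGL-90 and 5.37 in CLL-1390. BANK1 stood at 8.95 in 17-71, against 5.64 in CL-1, 4.87 in GL-1, 5.35 in CLGL-90 and 4.92 in CLL-1390. All of the other lines' values were under the controls, and with the floor the gaps were 2.41 for CD40 and 2.19 for BANK1. BLNK, an adaptor of the same receptor, stood at 8.12 in 17-71, below CLGL-90 (9.90) and above the other 3 lines (5.35 to 5.68).

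Of 10 plasma cell genes CD38 alone was past log2 2, and the median difference was -0.34. CD38, an enzyme on activated and plasma cells, stood at 9.06 in 17-71, against 4.62 in CL-1, 4.61 in GL-1, 5.26 in CLGL-90 and 4.56 in CLL-1390, with gaps of 3.80 and 2.71 by 2 probe sets, and the gap of 3.80 was 2.30 with the floor. PRDM1, the regulator of plasma cell fate, stood at 7.03 in 17-71, against 10.48 in CL-1, 8.29 in GL-1, 8.88 in CLGL-90 and 6.97 in CLL-1390. Of 11 germinal centre genes 0 were past log2 2. BCL6, the repressor that defines germinal centre B cells, came within 0.01 of it, at 10.35 in 17-71, against 6.15 in CL-1, 7.28 in GL-1, 7.97 in CLGL-90 and 8.36 in CLL-1390.

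T-lineage genes were mostly at background in 17-71, with 8 of 24 over the foreign control. Of the 24 members, 10 lay at least log2 1 below the median of the other lines (4.32% of all genes did) and 1 above, and the median difference was -0.34 in 17-71, close to the -0.35 of CL-1. LCK, the kinase that starts T-cell receptor signalling, was the 1 member past log2 2. It stood at 5.58 in 17-71, against 8.88 in CL-1, 10.65 in GL-1, 11.78 in CLGL-90 and 11.44 in CLL-1390. Its other probe set had a gap of 1.95. CD3D, a chain of the T-cell receptor complex, read 5.14 in 17-71 and 5.44 in CL-1, both under the controls, against 9.78 in GL-1, 13.51 in CLGL-90 and 10.89 in CLL-1390. The 1 member that lay at least log2 1 above was CD2, an adhesion receptor of T and natural killer cells, which was high in 17-71 (11.42) and CLGL-90 (12.59) and at 5.71 to 6.30 in the other 3 lines.

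The list of cytotoxic and natural killer genes held 1 member of 18 past log2 2, below, and its median difference was -0.19. That member was KLRG1, an inhibitory lectin receptor, at 7.50 in 17-71, against 11.85 in CL-1, 12.02 in GL-1, 12.97 in CLGL-90 and 11.55 in CLL-1390. CLEC2D, a lectin that in humans is the ligand of a natural killer receptor, stood at 5.91 in 17-71, against 10.74 in CL-1, 9.24 in GL-1, 12.84 in CLGL-90 and 12.27 in CLL-1390. Its 3 probe sets had gaps of 3.33, 3.80 and 2.31 below. FCER1G and TYROBP, signalling chains shared by many innate receptors, lay highest in 17-71 (11.09 and 12.29), with GL-1 next (10.09 and 11.25).

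Myeloid genes were split. Of 23 members, 11 lay at least log2 1 above the median of the other lines and 0 as far below (5.29% and 4.32% of all genes did), and the median difference was 0.40. The list's median signal was 7.72 in 17-71, against 5.86 in CL-1, 7.53 in GL-1, 6.33 in CLGL-90 and 6.33 in CLL-1390. Taken gene by gene against the other lines, GL-1 stood further above, with a median difference of 1.17. CD68, ITGAX and NCF1 were past log2 2, 3 of 23 (0.792% of all genes were). ITGAX, the integrin chain CD11c of dendritic cells and some B cells, stood at 8.80 in 17-71, against 5.76 in CL-1, 6.24 in GL-1, 6.74 in CLGL-90 and 6.44 in CLL-1390. NCF1, a cytosolic subunit of the phagocyte oxidase, stood at 8.59 in 17-71, against 4.77 in CL-1, 6.44 in GL-1, 5.00 in CLGL-90 and 5.02 in CLL-1390, and with the floor its gap of 2.15 was 1.83. CYBB, the membrane subunit, chosen after its values were seen, came close at a gap of 1.90, with 11.09 in 17-71, against 6.24 in CL-1, 9.19 in GL-1, 6.04 in CLGL-90 and 6.98 in CLL-1390. In 17-71, 16 of the 23 members lay over the foreign control, 10 were highest (15.7% of all genes were) and 2 lowest (17.5% were). The defining genes MPO (5.38), ELANE (6.40), CSF1R (6.53), MARCO (5.71) and TREM1 (6.26) were under the control of 6.60 in 17-71. CD163 at 6.62 was level with it.

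Lists of markers of other cell types lay near the other lines. The median difference was 0.10 for dendritic cells (13 genes), 0.01 for mast cells and basophils (13 genes), -0.10 for fibroblasts and matrix (13 genes), 0.02 for endothelium and epithelium (10 genes) and -0.07 for erythroid cells and megakaryocytes (8 genes). Single members stood apart. LAMP3, a lysosomal protein of mature dendritic cells, stood at 11.15 in 17-71, against 5.45 in CL-1, 5.63 in GL-1, 6.35 in CLGL-90 and 5.73 in CLL-1390. ACTA2, a smooth muscle actin, stood at 9.25 in 17-71, against 3.92 in CL-1, 4.20 in GL-1, 4.35 in CLGL-90 and 4.26 in CLL-1390, and its gap of 4.91 was 2.49 with the floor. In the same list FN1, fibronectin, read 5.34 in 17-71 and THY1 5.93, both under the control, while FN1 reached 14.01 in CL-1 and THY1 11.19 in CLGL-90. FCER1A, the alpha chain of the IgE receptor, stood at 12.14 in 17-71, with GL-1 next at 10.91 and the remaining 3 lines between 6.80 and 7.31. Other mast cell genes, CPA3 (5.46) and GATA2 (5.24), were under the control in 17-71.

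Single genes of cytokines and their receptors had wide gaps, while the cytokine receptor list, to which IL1R2 belongs, lay near the other lines. IL18 and IL10 belonged to none of the lists. IL18, a cytokine processed by the inflammasome, stood at 12.40 in 17-71, against 5.19 in CL-1, 7.77 in GL-1, 6.11 in CLGL-90 and 4.86 in CLL-1390, with gaps of 4.63 and 4.80 by 2 probe sets. IL1R2, the decoy receptor of interleukin 1, stood at 11.73 in 17-71, against 5.01 in CL-1, 7.11 in GL-1, 5.89 in CLGL-90 and 5.26 in CLL-1390, with gaps of 4.62 and 4.99. GL-1 was the nearest line for both genes. IL1R2 was the 1 of 38 cytokine receptor and JAK-STAT genes past log2 2, and that list's median difference was 0.14. Chosen after their values were seen, IL10, a cytokine that restrains immune responses, stood at 11.83 in 17-71, against 6.04 in CL-1, 7.49 in GL-1, 6.50 in CLGL-90 and 6.69 in CLL-1390, and IL23A at 8.77 in 17-71, against 5.50 to 6.28. CCL17, a chemokine for CCR4, stood at 7.67 in 17-71 and 5.15 to 5.60 in the others, a gap of 2.07 that became 0.91 with the floor. ENTPD1 (CD39), which breaks down extracellular ATP, stood at 9.33 in 17-71 and 5.66 to 6.96 in the others. ADORA2A, the receptor for the adenosine that this breakdown leads to, stood at 11.13 in 17-71 and 8.36 to 9.00 in the others. Both were likewise chosen after their values were seen. Among 20 costimulation and checkpoint ligands the median difference was 0.18, CD40 was past log2 2, and CD80 (10.08 in 17-71) was exceeded by CLGL-90 (12.76).

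**Figure D3:**
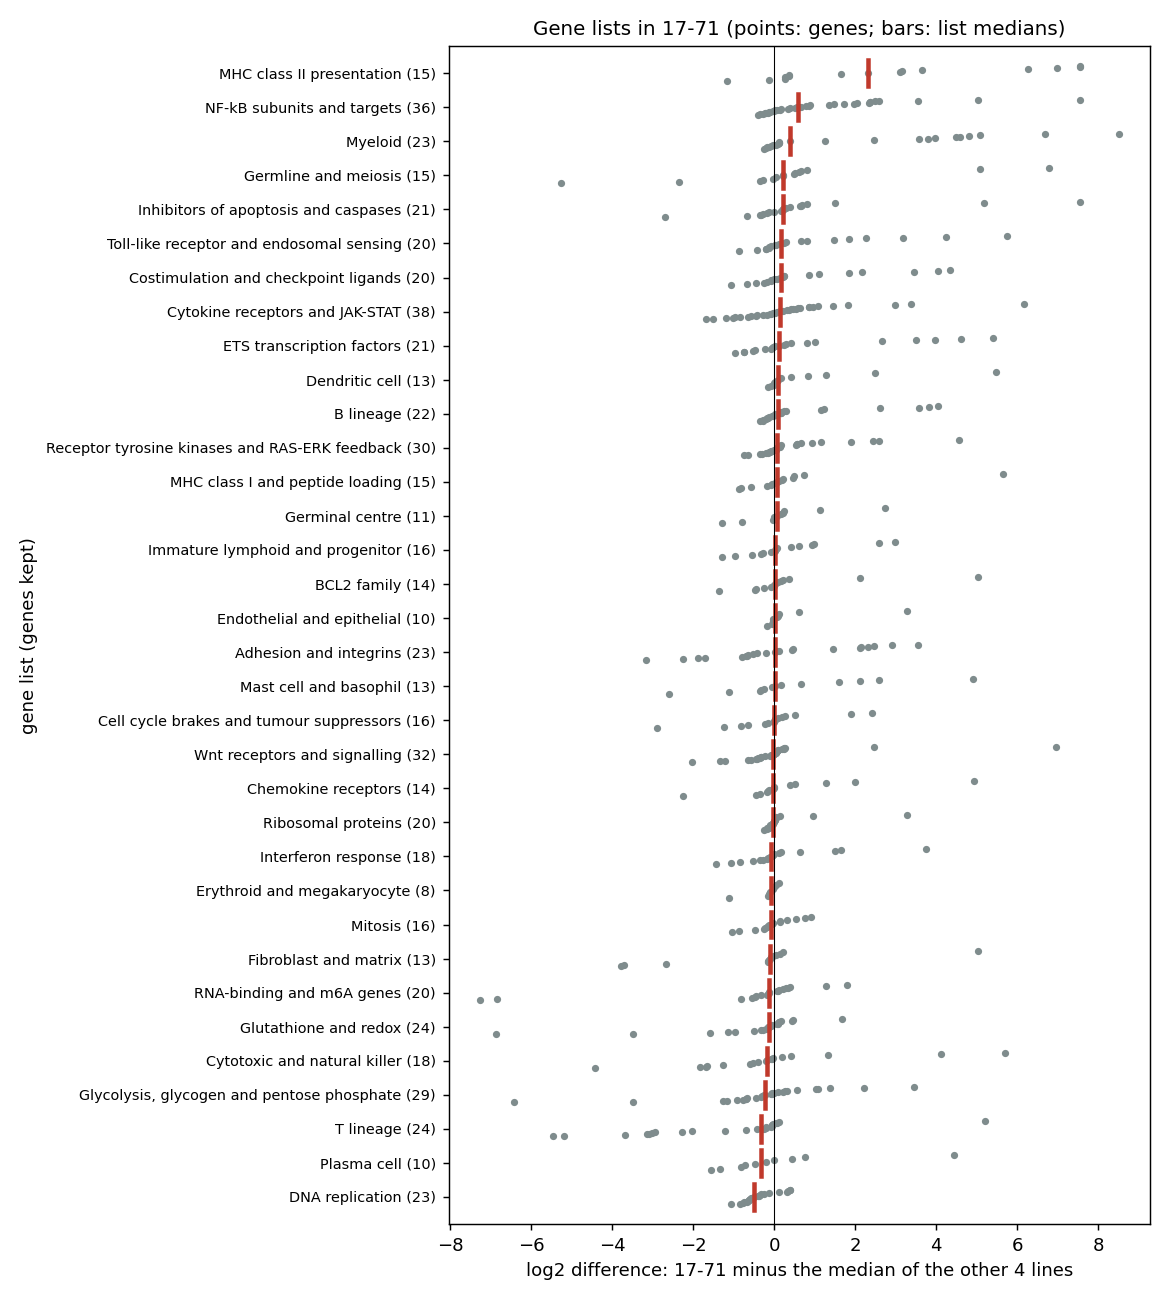
Difference in log2 signal between 17-71 and the median of the other 4 lines (horizontal axis) for each gene (points) and the median (red bars) of 34 gene lists, with the number of genes kept in parentheses. The MHC class II median lies at 2.32 and the NF-kB median at 0.59, and DNA replication lies lowest at -0.50.

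The list of germline and meiosis genes, 15 in number, held 2 of the gaps above (0.792% of all genes had one) and 1 below (0.243% did). HORMAD1, a protein of the meiotic chromosome axis that is silent in most somatic cells, stood at 10.71 in 17-71, against 3.73 in CL-1, 3.97 in GL-1, 3.88 in CLGL-90 and 4.04 in CLL-1390. Its other 2 probe sets had gaps of 8.88 and 8.83, wider than the 6.67 of the probe set that represents it. SYCP2, of the same axis, stood at 8.85 in 17-71, against 3.81 in CL-1, 3.96 in GL-1, 3.57 in CLGL-90 and 3.74 in CLL-1390, with gaps of 4.89 and 3.54. With the floor, the gap of HORMAD1 was 3.95 and that of SYCP2 2.09. Most of the 15 germline and meiosis genes stayed near the other lines, with a median difference of 0.22. DMC1 (6.46), SMC1B (5.08), SPO11 (5.75) and TEX11 (5.12) read under the control in 17-71. MAGED2, whose family includes germline antigens though MAGED2 itself is widely expressed, was the member below. It stood at 5.49 in 17-71, against 10.76 in CL-1, 10.71 in GL-1, 9.72 in CLGL-90 and 11.98 in CLL-1390, and its 4 probe sets had gaps of 4.23, 1.35, 2.53 and 1.52.

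Other genes with wide gaps above came from no single list. TINAGL1, a secreted matrix protein, stood at 10.94 in 17-71, against 5.70 in CL-1, 5.87 in GL-1, 6.03 in CLGL-90 and 5.86 in CLL-1390. SERPINB2, an inhibitor of plasminogen activators, stood at 9.21 in 17-71, against 4.06 in CL-1, 4.52 in GL-1, 4.57 in CLGL-90 and 4.49 in CLL-1390, with gaps of 4.63 and 4.82 by 2 probe sets, and the gap of 4.63 was 2.45 with the floor. ASS1, an enzyme of arginine synthesis, stood at 13.98 in 17-71, against 9.02 in CL-1, 9.51 in GL-1, 9.55 in CLGL-90 and 9.49 in CLL-1390. Its second probe set widened the gap of 4.43 to 5.69. ABCA5, a membrane transporter, stood at 10.64 in 17-71, against 5.31 to 6.15 in the other lines, with gaps of 4.49 and 5.03. RPS4X, a protein of the small ribosomal subunit, stood at 12.40 in 17-71, against 7.29 in CL-1, 9.04 in GL-1, 9.18 in CLGL-90 and 9.29 in CLL-1390. It was the 1 of 20 ribosomal protein genes past log2 2, by 1 probe set, and whether that probe set also reads copies of the gene was not tested. CCDC179 and LOC478001 stood at 9.65 and 10.61 in 17-71 and at 4.25 to 5.47 in the other lines. With the floor the gap of CCDC179 was 2.89 and that of LOC478001 3.85. LOC478001 has 1 probe set, and the other probe sets of CCDC179 had gaps of 0.10 and -0.26.

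YBX3, YTHDF3, PGM2 and GSTO1 each lay at background in 17-71 and at log2 10 or more elsewhere, so the sizes of their gaps depend on the background. With the floor their gaps were 4.84, 3.66, 3.67 and 4.35, and those of KLRG1 (4.05) and SNRPN (3.81), which 17-71 held over background, lay among them. YBX3, a cold-shock protein that binds RNA and DNA, stood at 4.63 in 17-71, against 12.24 in CL-1, 11.51 in GL-1, 11.44 in CLGL-90 and 13.14 in CLL-1390. Its gap was 6.81, and its other probe set had a gap of 2.21. PGM2, a phosphopentomutase that feeds ribose phosphate into nucleotide and sugar pathways, stood at 3.93 in 17-71, against 11.03 in CL-1, 10.31 in GL-1, 10.41 in CLGL-90 and 10.27 in CLL-1390. Its 3 probe sets had the same direction, with gaps of 6.34, 5.40 and 3.66 over background values in 17-71. GSTO1, a glutathione transferase, stood at 4.65 in 17-71, against 11.53 in CL-1, 11.50 in GL-1, 12.21 in CLGL-90 and 10.95 in CLL-1390, by 1 probe set. YTHDF3, a reader of m6A-modified RNA, stood at 3.77 in 17-71, against 10.68 in CL-1, 10.97 in GL-1, 10.54 in CLGL-90 and 10.27 in CLL-1390. Its other probe set read 5.33 in 17-71 and 6.13 to 7.72 in the others, a gap of 0.80. The lists to which these genes belong did not follow them. The median difference was -0.12 for 20 RNA-binding and m6A genes (2 past log2 2 below), -0.12 for 24 glutathione and redox genes (1 below) and -0.22 for 29 genes of glycolysis, glycogen and pentose phosphate (2 below). Over all genes 0.243% lay that far below. The other glycolysis gene past log2 2 was ALDOC, an aldolase, at 8.31 in 17-71, against 10.91 in CL-1, 10.56 in GL-1, 12.82 in CLGL-90 and 12.69 in CLL-1390.

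SNRPN, a spliceosome protein gene that is imprinted in humans and mice, stood at 8.63 in 17-71, against 12.43 in CL-1, 12.55 in GL-1, 12.54 in CLGL-90 and 13.21 in CLL-1390. Its 2 probe sets had gaps of 3.81 and 5.36. DECR1, of mitochondrial fatty acid oxidation, stood at 7.40 in 17-71, against 11.53 in CL-1, 11.04 in GL-1, 11.50 in CLGL-90 and 12.22 in CLL-1390, with gaps of 3.64 and 2.70. GYPC, a glycophorin of the membrane skeleton, stood at 6.32 in 17-71, against 10.22 in CL-1, 10.74 in GL-1, 11.45 in CLGL-90 and 12.76 in CLL-1390. RDX, which ties actin to the membrane, stood at 6.97 in 17-71, against 10.64 in CL-1, 9.94 in GL-1, 11.62 in CLGL-90 and 10.35 in CLL-1390, and its 3 probe sets had gaps of 2.97, 3.51 and 3.44. UNC119, VAMP5, PGRMC1 and HMCES had gaps of 2.57, 2.83, 2.74 and 2.43 below, and in each of these 4 genes both probe sets were past log2 2.

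DNA replication genes lay a little lower in 17-71 as a group. Of 23 members, 10 were lowest in 17-71 (17.5% of all genes were) and 2 highest, 0 had a gap of log2 1, and the median difference was -0.50. The list's median signal was 10.88 in 17-71, against 11.52 in CL-1, 11.46 in GL-1, 10.66 in CLGL-90 and 11.42 in CLL-1390, so CLGL-90 lay lower by that measure. Taken gene by gene against the other lines, CLGL-90 had a median difference of -0.41, less far below than the -0.50 of 17-71. POLD1, a catalytic subunit of DNA polymerase delta, read 8.48 in 17-71, against 9.74 in CL-1, 9.42 in GL-1, 8.46 in CLGL-90 and 9.70 in CLL-1390. MCM7, of the replicative helicase, read 10.88 in 17-71, against 11.72 in CL-1, 11.73 in GL-1, 10.65 in CLGL-90 and 11.72 in CLL-1390. Mitosis genes had a median difference of -0.09 over 16 members. PLK1, a mitotic kinase, was lowest in 17-71 at 8.99, against 10.01 to 10.19 in the other lines. The remaining lists had median differences of -0.02 for chemokine receptors (14 genes), 0.02 for adhesion genes and integrins (23), 0.03 for immature lymphoid and progenitor genes (16), 0.03 for the BCL2 family and 0.01 for cell cycle brakes and tumour suppressors (16).

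Counted as probe sets, 287 of 37793 (0.759%) were at least log2 2 above every other line in 17-71 and 92 (0.243%) as far below. Among 26360 with 1 gene name there were 216 above (0.819%) and 69 below (0.262%), and among 11045 with no gene name 71 above (0.643%) and 19 below (0.172%). Probe sets of a gene gave a check within the arrays. Of the 114 genes above, 59 had 2 or more probe sets, and in 41 of these all were past log2 1, in 29 all past log2 2. In 9 no other probe set was past log2 1 (CCDC179, LMNA, PDZK1, PLEKHG3, PM20D2, SHC4, SINHCAF, TMEM245 and VCAM1). Their 99 other probe sets had a median gap of 1.85, and 25 of the 99 varied by under 1 across the 5 lines. Of the 35 genes below, 26 had 2 or more probe sets, with all past log2 1 in 15 and all past log2 2 in 11. In 5 no other probe set was past log2 1 (ANXA5, ENAH, FKBP1B, SERF2 and YTHDF3). Of their 44 other probe sets 11 varied by under 1, and the median gap was 1.94. Not 1 of these other probe sets had a gap of log2 1 in the opposite direction (0 in both sets). The other 55 genes above and 9 below had 1 probe set each, so nothing on the array checks them. VCAM1, at 6.17 in 17-71 and 3.69 to 3.98 in the others, and LIPI were at or under the control in 17-71 itself, and their gaps with the floor were 0.

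**Figure D4:**
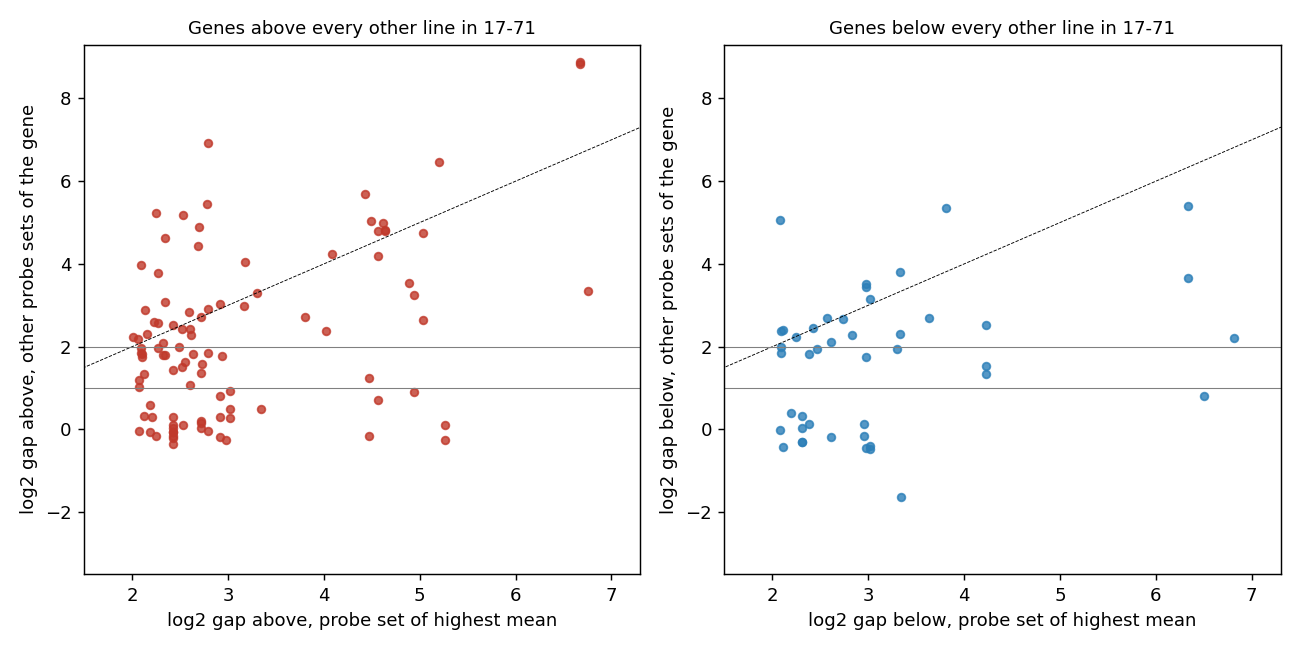
Gap of each other probe set of a gene (vertical axis, log2) against the gap of the probe set that represents the gene (horizontal axis, log2), for genes above (left) and below (right) every other line in 17-71. Grey lines mark log2 1 and log2 2 and the dashed line marks equal gaps. Many points lie near the dashed line, the highest being HORMAD1 at 8.88, and a second band lies near 0.

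Genes that differ in 17-71 were in part neighbours in the genome. Gene order came from the reference table of assembly UU_Cfam_GSD_1.0, and these stretches were looked for after the data were seen. Along the genome, the median difference of 25 consecutive measured genes reached 0.40 or more in 11 separate stretches and -0.40 or less in 7. The longest, from H2BC18 to OVGP1, held 74 measured genes, of which 58 lay above the median of the other lines and 43 were highest in 17-71. Over all genes, 15.7% were highest and 17.5% lowest in 17-71. The stretches were picked by these same values, so counts of genes highest or lowest within them are high by that choice. Its median difference was 0.72 in 17-71, against -0.16 in CL-1, -0.12 in GL-1, 0.02 in CLGL-90 and -0.01 in CLL-1390, each line taken against the other 4. HORMAD1, RFX5 and TUFT1 were its genes past log2 2, and CTSS and MCL1 lie in it too. SETDB1, a histone methyltransferase in it, stood at 11.70 in 17-71, against 9.59 in CL-1, 9.29 in GL-1, 9.39 in CLGL-90 and 9.76 in CLL-1390. Of the gaps above described here for class II and germline genes, those of RFX5, CTSS and HORMAD1 are thus not separate in position.

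A second chromosome held 3 of the stretches. The one from TSPAN11 to C1S (50 genes, median 0.56, 30 highest in 17-71) included TIGAR and SPSB2, and the one from ST8SIA1 to TMEM117 (54 genes, median 0.48, 26 highest) included ST8SIA1, CCDC91, CAPRIN2, SINHCAF and YARS2. ST8SIA1, the enzyme that makes the ganglioside GD3, stood at 8.03 in 17-71, against 4.86 in CL-1, 5.23 in GL-1, 5.24 in CLGL-90 and 5.14 in CLL-1390. All 4 other values of ST8SIA1 were under the foreign controls, and with the floor its gap of 2.79 was 1.27, short of log2 2. The other probe set of ST8SIA1 had a gap of 6.93. In this second stretch the 25 genes from FGFR1OP2 to YARS2 had a median difference of 1.33 in 17-71, the highest of any such window in 17-71, against -0.18 in CL-1, -0.11 in GL-1, 0.03 in CLGL-90 and -0.23 in CLL-1390. Between them, the stretch from NECAP1 to GABARAPL1 (25 genes, median 0.40) held GABARAPL1 past log2 2 above. It also held KLRG1 and CLEC2D, which go the other way. Of the other stretches above 0.40, that from SPIDR to GCM2 (41 genes, median 0.57) held SERPINB1, LOC478702 and BMP6. That from ZNF713 to RFC2 (27, 0.66) held NCF1, and that from FGFR3 to NSG1 (32, 0.37) held CD38 and CLNK. LAMP3 lay in that from NDUFS6 to EIF2B5 (45, 0.37) and KLHDC9 in that from DEDD to SLAMF8 (28, 0.40). Those from PHACTR1 to GPLD1 (30, 0.44) and from LRRC14 to ATP10D (29, 0.42) held no gene past log2 2. Over LRRC14 to ATP10D the median of CL-1 was nearly as high, at 0.37, over SPIDR to GCM2 it was 0.30, and over ST8SIA1 to TMEM117 that of CLL-1390 was -0.41. Medians over a whole stretch can lie under 0.40, since a stretch joins overlapping windows.

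**Figure D5:**
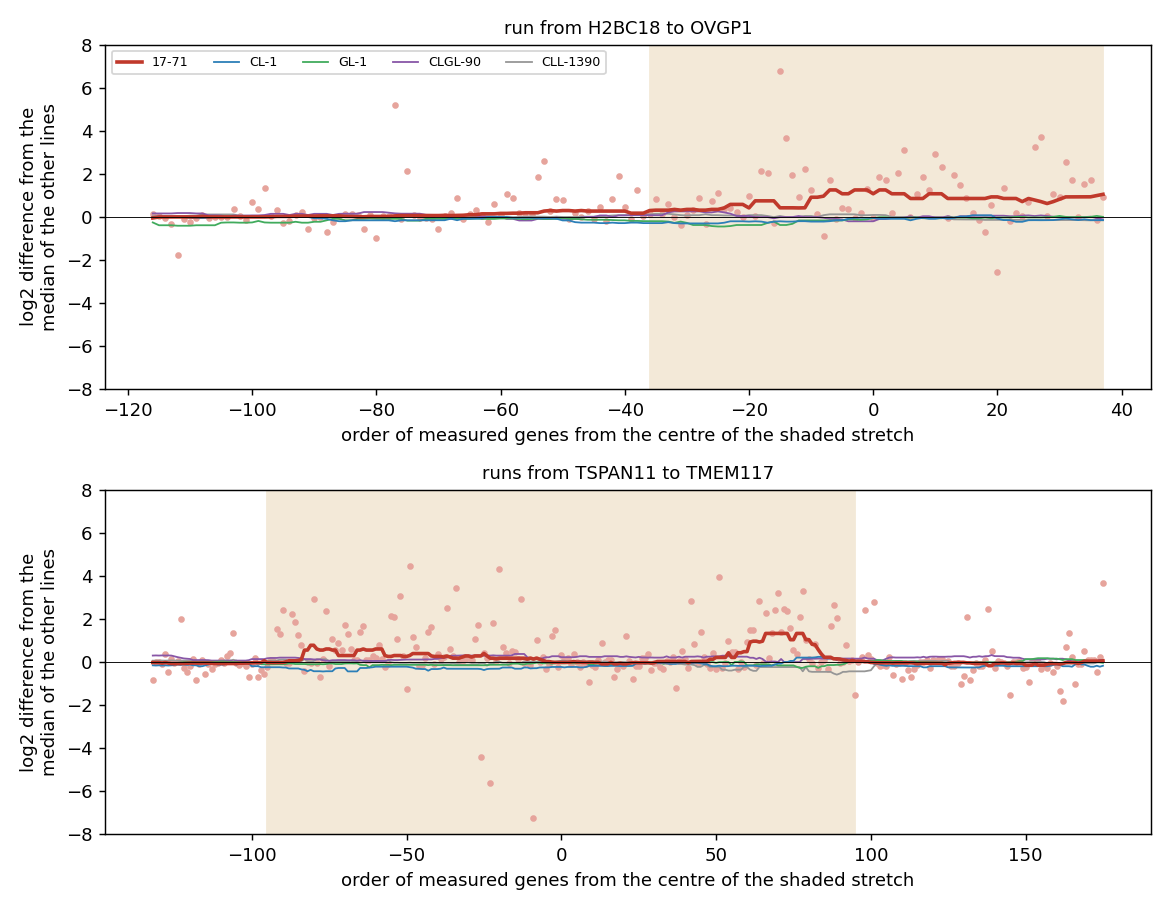
Difference in log2 signal from the median of the other lines for genes in genome order (horizontal axis, number of measured genes from the centre of the shaded stretch), with points for 17-71 and lines for the running median of 25 genes in each line. In the top stretch the running median lies at 0.29 to 1.25 in 17-71 and at -0.45 to 0.25 in the other lines, and in the lower shading, which also covers the genes between the 3 stretches, at -0.08 to 1.33 in 17-71 and at -0.58 to 0.38 in the others; KLRG1, CLEC2D and YBX3 are the 3 points under -4 at the bottom.

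Of the 7 stretches below, that from REEP5 to LYSMD3 had the lowest median (39 genes, -0.52, 18 lowest in 17-71, as were 17.5% of all genes). A pair of neighbouring stretches, from XAF1 to ALOX12 (39 genes, median -0.31, 22 lowest) and from LOC607405 to FXR2 (31 genes, -0.42, 20 lowest), lay close together. The second of them held CD68, which stood 4.02 above every other line while its neighbour MPDU1 lay 2.08 below. The other 4 ran from CYP2F1 to LOC612523 (28 genes, -0.42, with PLD3), from MAP3K2 to R3HDM1 (35, -0.29, with GYPC), from NSMAF to ARFGEF1 (26, -0.35, with YTHDF3) and from CNGB3 to MTDH (30, -0.37, with DECR1). Over MAP3K2 to R3HDM1 the median of CL-1 was lower than that of 17-71, at -0.46, and over CNGB3 to MTDH it was 0.65. Such stretches were not particular to 17-71. Of 13441 overlapping windows, 152 reached 0.40 and 50 reached -0.40 in 17-71, against 494 and 253 in CL-1. The counts were 107 and 40 in GL-1, 7 and 96 in CLGL-90, and 67 and 180 in CLL-1390. The highest and lowest windows were 1.33 and -0.56 in 17-71, 1.10 and -0.70 in CL-1, 0.72 and -0.73 in GL-1, 0.45 and -0.79 in CLGL-90, and 0.53 and -1.13 in CLL-1390.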

How the data were processed

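RNA of each line was read on 1 Affymetrix canine array, and the values used are the authors' deposited log2 signals. Per the submitters' processing notes they were made with GCRMA, which corrects background, normalizes between arrays and summarises probes; its version is not given in the sources used here. Of 43035 probe sets 111 manufacturer controls were left out. Of the other 42924, 29254 had 1 gene symbol in the platform annotation, 439 had several and were not used for genes, and 13231 had none; 94.6% of the gene IDs were found in the reference table of UU_Cfam_GSD_1.0, used for names and gene order. Each of 15115 genes was read by its probe set of highest mean, and 728 that stayed under log2 5 in every line were left out. Arrays give no depth; with 0 replicate arrays their number limits precision, and no test was run.

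Gaps, list medians and running medians were computed in Python 3.11.15 with pandas 2.3.3 and numpy 2.4.6, and the procedure was tested on simulated data. Named genes are the 6 markers given for 17-71, the 15 largest gaps above and 10 below, up to 10 genes per direction of largest median gap with every probe set past log2 2, and in each of 34 lists the members past log2 2 or otherwise up to 3 of largest difference, with the B-lineage markers. Other genes are named as chosen after their values were seen, and so were further list members shown as examples and in the heat map. The members, lists and rule were chosen with earlier results of these data known, and the stretches of neighbouring genes after seeing the data. Alternatives were other filters, floors, gaps, probe set summaries, normalizations, the mean of the other lines, and leaving out each line.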

Additional observations from a re-analysis of the deposited data

How the results depend on the processing

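For the 55 named genes past log2 2 and for the MHC class II and NF-kB medians, no direction was reversed in the alternatives run. Reversal was not assessed for list medians under 0.5 in size or for smaller gaps. The 114 genes at least log2 2 above every other line in 17-71 and the 35 genes at least log2 2 below every other line in 17-71 became 299 and 137 at a gap of log2 1, 46 and 15 at log2 3, 300 and 177 against the median of the other lines, 287 and 92 as probe sets, and 29 and 11 where every one of 2 or more probe sets had to pass. Leaving out 1 other line gave 129 to 161 above and 46 to 63 below; the count below was 63 without CL-1, 57 without CLGL-90 and 54 without CLL-1390, since fewer lines have to be passed. The MHC class II median of 2.32 was 3.11 with the probe set of highest variance and 1.70 against the mean of the other lines, and 2.07 to 3.05 with 1 line left out. The NF-kB median of 0.59 was 0.68 with the probe set of highest variance, 0.70 with the mean of probe sets, 0.57 after quantile normalization again, 0.56 with centred arrays, 0.45 with the floor at the controls, 0.65 with the filter at log2 7, 0.63 with log2 5 on at least 2 arrays, 0.45 against the mean of the other lines, and 0.49 to 0.65 with 1 line left out. The 11 stretches above and 7 below became 28 and 22 with windows of 15 genes, and 4 and 1 with windows of 51, both chosen after seeing the data. The 4 above with windows of 51 overlap 6 of the 11: H2BC18 to OVGP1, TSPAN11 to C1S, NECAP1 to GABARAPL1, ST8SIA1 to TMEM117, SPIDR to GCM2 and PHACTR1 to GPLD1. Of 55 named genes past log2 2, 4 dropped under it in 5 of 487 alternative values: CCDC179 (1.72) and VCAM1 (1.46) with the mean of probe sets, and CXCL10 (0.73), NCF1 (1.83) and VCAM1 (0) with the floor. There the probe set of highest mean was chosen again after the floor was set; with its probe set kept, ST8SIA1 also dropped, to 1.27. No paired analysis was possible because each line has 1 array. Each value rests on 1 culture, so line and array cannot be told apart, and values under 6.39 to 6.76 have no order.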

Other observations

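Of the 149 genes past log2 2 in either direction, some had a direct neighbour in gene order whose gap was at least log2 1 (2.08% of all genes had such a gap above and 0.952% below, and a gene has up to 2 direct neighbours). There were 25 such neighbouring pairs, of which 22 had both genes in the same direction and 4 had both past log2 2. Among those 4, MZT2B (2.61 below) and LOC608051 (2.79 above) went opposite ways, as did CD68 (4.02 above) and MPDU1 (2.08 below). CAPRIN2 and SINHCAF both lay above, as did TMEM176A and TMEM176B. FAS, the death receptor, lies beside ACTA2 and stood at 9.50 in 17-71, against 4.71 in CL-1, 7.57 in GL-1, 4.72 in CLGL-90 and 5.20 in CLL-1390. CCR6 lies beside CEP43 (gap 1.21), FOS beside JDP2 (1.29) and SERPINB1 beside SERPINB9 (1.52). TMEM176A and TMEM176B, which are neighbours, had gaps of 2.78 and 2.29. These genes were chosen after their values were seen.

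CTSZ, a lysosomal protease, also chosen after its values were seen, stood at 13.02 in 17-71 and 9.86 in CL-1, against 5.53 in GL-1, 5.64 in CLGL-90 and 5.24 in CLL-1390. Its other probe set had the same order, with a gap of 2.97 above CL-1. CCND2, a D cyclin in the stretch from TSPAN11 to C1S, stood at 14.19 in 17-71, against 13.41 in CL-1, 12.37 in GL-1, 13.40 in CLGL-90 and 7.16 in CLL-1390.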
